A study of Mus musculus with 3 samples.

Results

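The neural miRNAs miR-9-5p, miR-9-3p, miR-124-3p, miR-128-3p and miR-138-5p were followed through 3 small-RNA sequencing libraries, to describe which of them a melanoma line holds and which it releases. They are 5 of the 1915 mature mouse miRNAs in each file, taken by name, and the choice of names was made with earlier results of these data known. Exosomes of B16 cells, a mouse melanoma line of strain C57BL/6J, gave 1 library. Exosomes of JB6 cells, a mouse skin line of strain BALB/c labelled as normal, gave 1, and B16 cells themselves gave 1. Exosomes are small vesicles that cells shed into their medium, and these had been pelleted by ultracentrifugation. No treatment is named for any of the libraries. No JB6 cell library was analysed here, and cell line, strain and disease state cannot be told apart between the B16 and JB6 libraries.

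These miRNAs are known from the nervous system. miR-9, whose arms are both used, is made in neural progenitors and acts on regulators of neurogenesis, among them the repressor REST for the 5p arm and its cofactor CoREST for the 3p arm. miR-124 is the characteristic miRNA of neurons and represses genes of other cell types, including the splicing regulator Ptbp1. miR-128 is enriched in brain and dampens neuronal excitability in mice, and miR-138 limits the size of dendritic spines in rat neurons. Melanocytes, the cells that melanoma arises from, descend from the neural crest, as do many peripheral neurons and glia. A miRNA hairpin is cut into a 5p and a 3p arm, of which usually 1 is kept, and the seed at bases 2 to 8 of the mature strand sets most of its targets.

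The mature sequences of 4 of the 5 follow, from RefSeq (build GRCm38.p6), 5′ to 3′, with the seed in capitals. They are shown because all 4 differ in their seed.
miR-9-5p: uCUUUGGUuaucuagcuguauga
miR-9-3p: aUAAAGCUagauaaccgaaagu
miR-128-3p: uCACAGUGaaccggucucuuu
miR-138-5p: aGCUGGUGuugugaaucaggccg
Of the 1679 mature mouse miRNAs in the same table, none shared its seed with any of these. A shifted match was found for miR-128-3p only, whose bases 1 to 7 (UCACAGU) equal the seed of miR-27a-3p and miR-27b-3p. None of the 4 sequences held GGAG, a motif bound by the vesicle-sorting protein hnRNPA2B1, or GGCU, a motif bound by SYNCRIP. GGAG occurred in 14.2% and GGCU in 13.1% of the 1623 miRNAs in the files with a RefSeq sequence. The search read the mature strand only, and matches of the 2 motifs can overlap by shared G bases.

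The genes of these miRNAs are scattered, and several give the same mature strand. In build GRCm38, which is the mm10 build of the files, miR-9 is encoded by 3 hairpins. Mir9-1 lies in an intron of the lincRNA Gm3764 (chromosome 3, 88215598 to 88215686), Mir9-2 in an exon of the lincRNA C130071C03Rik (chromosome 13, 83738814 to 83738885) and Mir9-3 in an intron of its host lincRNA Mir9-3hg (chromosome 7, 79505264 to 79505353). Mir128-1 lies in an intron of R3hdm1 (chromosome 1, 128202361 to 128202430) and Mir128-2 in an intron of Arpp21 (chromosome 9, 112118636 to 112118711). Mir138-1 overlaps an exon of the transcribed pseudogene Gm47135 (chromosome 9, 122682876 to 122682974), and Mir138-2 an exon of the lincRNA C78859 (chromosome 8, 94324311 to 94324381). The hairpins of one family give identical reads for the listed arm, so those reads cannot be assigned to a gene.

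Depth set what could be seen. Reads assigned to miRNAs numbered 45677 in B16 exosomes, 4495956 in JB6 exosomes and 7925726 in B16 cells. No count between 0 and 10 was listed, so a listed 0 stands for at most 9 reads, which is 197 reads per 1000000 miRNA reads (RPM) in B16 exosomes, 2.002 RPM in JB6 exosomes and 1.14 RPM in B16 cells. Each group has 1 library, so differences have no replicate check, and exact (Clopper-Pearson) 95% intervals cover counting error only. As a check of the labels, melanocyte miRNAs (miR-211 and miR-204, both arms) had 1 of 4 entries listed and a summed 1817 RPM in B16 exosomes, 2 of 4 and 279 RPM in JB6 exosomes, where miR-211-5p was at 0, and 3 of 4 and 2743 RPM in B16 cells. Of the sum in JB6 exosomes, 276 RPM came from miR-204-3p, which was at 0 in both B16 libraries. Epithelial miRNAs (the miR-200 family, miR-203 and miR-205) had 0 of 7 entries listed in B16 exosomes, 2 of 7 with 7.78 RPM in JB6 exosomes, and 4 of 7 with 24.9 RPM in B16 cells, and miR-205-5p was at 0 in all 3. JB6 exosomes held many reads of miRNAs of other tissues. Liver miRNAs summed to 252484 RPM there, with 4 of 4 listed, muscle miRNAs to 3707 RPM, with 3 of 4 listed, and blood-cell miRNAs to 7493 RPM, with 6 of 8 listed. Each sum was nearly all 1 miRNA, miR-122-5p at 251231 RPM, miR-206-3p at 3696 RPM and miR-486a-5p at 7339 RPM. The liver entry miR-194-5p went the other way, with 28.2 RPM in JB6 exosomes against 110 RPM in B16 cells. In B16 exosomes the same lists held 963 RPM, 0 and 0, and in B16 cells 686, 1.39 and 22.2 RPM. The entries miR-486a-5p and miR-486b-5p of the blood-cell list had identical counts in each library and were counted once in it. Their part in the results on JB6 exosomes was not tested.

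B16 cells held 4 of the 5 neural miRNAs, and miR-9-5p made up most of them. The 5 together took 1.38% of miRNA reads in B16 exosomes (1.28 to 1.49), 0.274% in JB6 exosomes (0.270 to 0.279) and 2.36% in B16 cells (2.35 to 2.38). Of these reads miR-9-5p was 81.8% in B16 exosomes (78.5 to 84.7), 2.45% in JB6 exosomes (2.18 to 2.74) and 82.7% in B16 cells (82.6 to 82.9). In JB6 exosomes miR-128-3p made up 96.5% instead (96.2 to 96.9). The neural reads of both B16 libraries were thus mainly miR-9-5p, and those of JB6 exosomes were nearly all miR-128-3p. A share of reads cannot tell fewer vesicles or cells with a miRNA from less of it in each.

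miR-9-5p, the progenitor miRNA that acts on REST, was abundant in both B16 libraries. It had 516 reads or 11297 RPM in B16 exosomes (10348 to 12309), 302 reads or 67.2 RPM in JB6 exosomes (59.8 to 75.2), and 155066 reads or 19565 RPM in B16 cells (19469 to 19662). It ranked 20 of 149 listed miRNAs in B16 exosomes, next to let-7a-5p and let-7b-5p, 143 of 389 in JB6 exosomes, and 13 of 559 in B16 cells, between miR-99a-5p and let-7a-5p. The B16 libraries were both high and the JB6 exosomes low, with intervals that do not overlap between any pair of libraries.

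miR-9-3p, the arm that acts on CoREST, was scarcer. It was listed at 0 in B16 exosomes, had 125 reads or 27.8 RPM in JB6 exosomes (23.1 to 33.1), and 2466 reads or 311 RPM in B16 cells (299 to 324). The share it had in the cells corresponds to 14.2 reads in the B16 exosome library, close to the listing limit of 10.

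miR-128-3p, the brain miRNA that dampens excitability, took like shares of miRNA reads in all 3 libraries. It had 105 reads or 2299 RPM in B16 exosomes (1881 to 2782), 11908 reads or 2649 RPM in JB6 exosomes (2601 to 2697), and 29177 reads or 3681 RPM in B16 cells (3639 to 3724). It ranked 48, 37 and 37 in the same order of libraries. Of these intervals only that of B16 exosomes and that of JB6 exosomes overlap.

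miR-138-5p, the spine miRNA, was rare. It had 10 reads or 219 RPM in B16 exosomes (105 to 403), a listed 0 in JB6 exosomes, and 723 reads or 91.2 RPM in B16 cells (84.7 to 98.1). The 10 reads are the smallest number listed, and 3 miRNAs of that library had it. miR-124-3p, the neuronal miRNA, was listed at 0 in every library, so that its level was at most 197 RPM in B16 exosomes, 2.002 RPM in JB6 exosomes and 1.14 RPM in B16 cells. Within B16 cells the order was miR-9-5p, miR-128-3p, miR-9-3p, miR-138-5p, and within JB6 exosomes miR-128-3p, miR-9-5p, miR-9-3p, with no overlap of intervals between neighbours. In B16 exosomes the order of the listed entries was miR-9-5p, miR-128-3p, miR-138-5p, again without overlap.

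**Figure D1:**
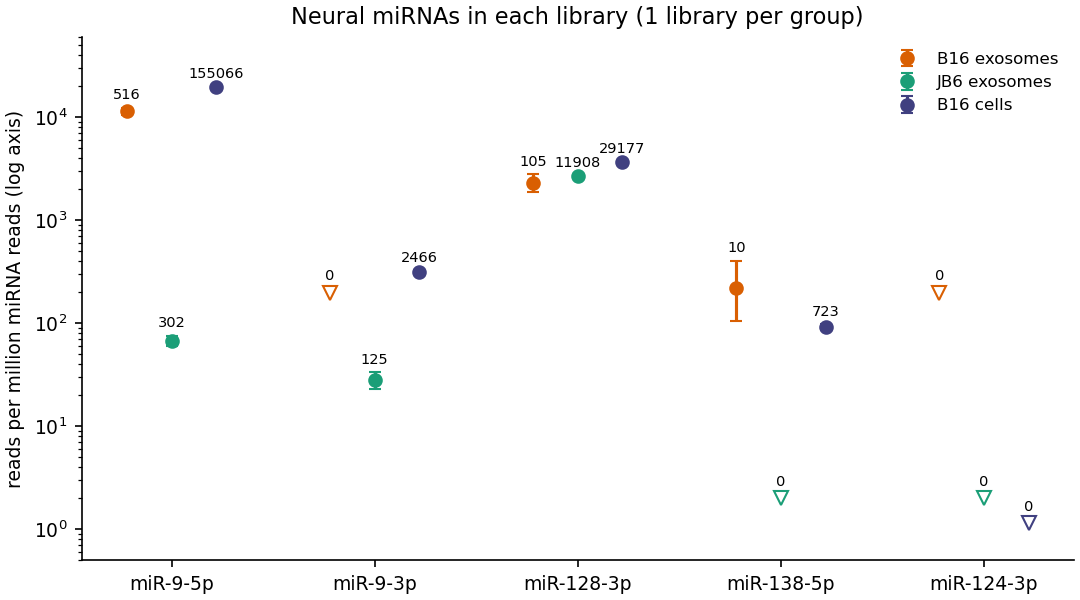
Level of each neural miRNA in RPM of miRNA reads (log axis) in B16 exosomes (orange), JB6 exosomes (green) and B16 cells (blue), 1 library each. Filled points carry exact 95% counting intervals and the read count, and open triangles mark a listed 0 at the level of 9 reads. miR-9-5p is high in both B16 libraries, at 11297 and 19565 RPM, and low in JB6 exosomes, while the 3 points of miR-128-3p lie close together.

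B16 exosomes were set against B16 cells, which asks what the vesicles of the melanoma line carry relative to the cells. The most abundant of the neural miRNAs were in the vesicles below their cell share. The ratio of shares was 0.577 for miR-9-5p (0.529 to 0.630) and 0.624 for miR-128-3p (0.511 to 0.756). Both intervals lie below 1, and neither ratio reaches the 2-fold size that, with an interval excluding 1, was required to call a miRNA higher or lower. miR-138-5p was called higher, at 2.40-fold (1.15 to 4.44), on its 10 reads against 4.17 expected from the cell share. No count from 1 to 9 is listed, so any listing of miR-138-5p here would have met the rule. The call therefore adds nothing to its being listed. For miR-9-3p the ratio was at most 0.633, taking 9 reads for the listed 0, with a counting limit of 1.20, and the comparison was not resolved. Thus 1 of the 4 miRNAs that had 30 or more reads over the pair was higher and 0 were lower. Over all 422 miRNAs with that many reads 8.53% were higher and 7.82% lower, and 267 of the 422 were not resolved because of a listed 0. The 3 listed in both libraries had a median log2 ratio of -0.68, against 0.03 over all 144 such miRNAs. In the order of those 144 ratios, 30 lay below miR-9-5p, 35 below miR-128-3p and 115 below miR-138-5p. This order leaves out miRNAs at a listed 0 in B16 exosomes, some of which lay below miR-9-5p. Among them miR-27a-5p had 1312 RPM in B16 cells, against at most 197 RPM in B16 exosomes.

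These calls depend on the scaling. With TMM factors, which move every log2 ratio of this pair by -1.02 (DESeq2 size factors by -0.13, without a change of call), miR-9-5p was 3.51-fold lower, miR-128-3p 3.24-fold lower and miR-9-3p at least 3.20-fold lower, and miR-138-5p was no longer higher at a ratio of 1.18 (0.566 to 2.19). All miRNAs then gave 16 higher and 93 lower, against 36 and 33 by total miRNA reads. With the totals behind the authors' RPM the shift was -4.08, the split 9 and 257, and all 4 were lower, miR-9-5p 29.2-fold, miR-128-3p 27.0-fold, miR-9-3p at least 26.6-fold and miR-138-5p 7.03-fold (ratio 0.142). Those totals were 847694 in B16 exosomes and 8721363 in B16 cells, of which miRNA reads made up 5.39% and 90.9%.

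**Figure D2:**
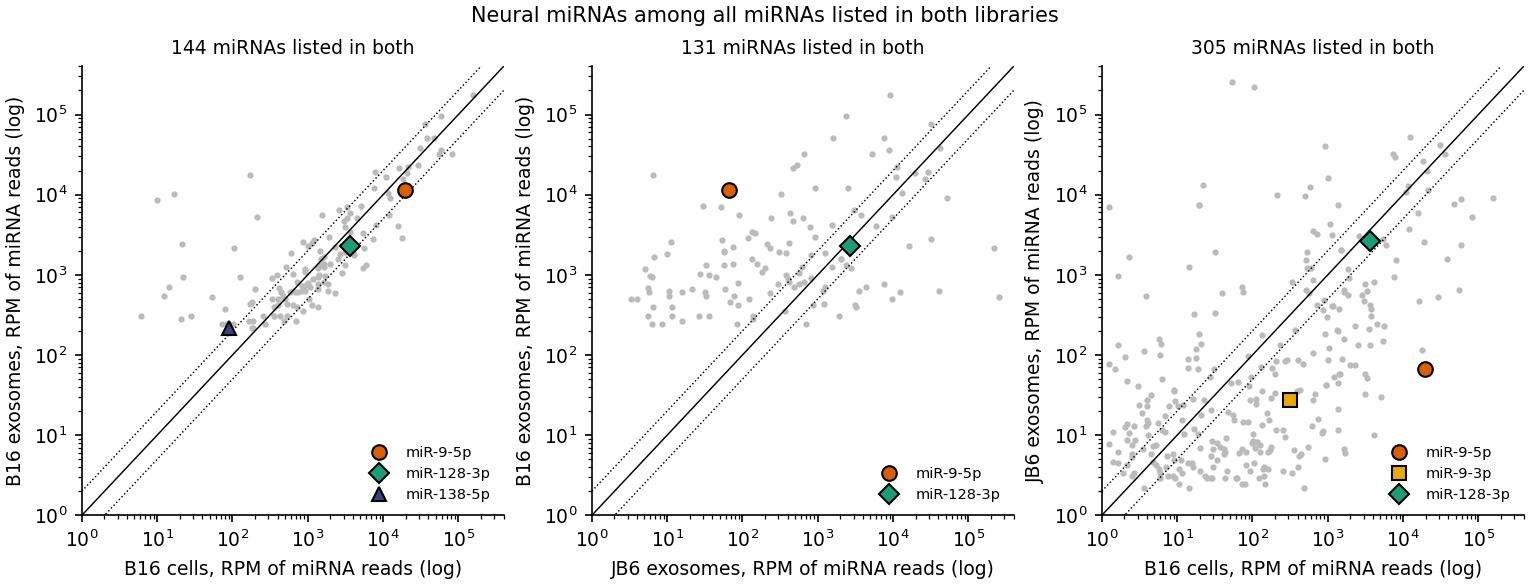
Level in RPM of miRNA reads (log axes) of every miRNA listed in both libraries of a pair with 30 or more reads (grey, 144, 131 and 305 miRNAs), with the neural miRNAs as coloured symbols. The solid line marks equal shares and the dotted lines 2-fold. miR-9-5p and miR-128-3p lie just under the line of equal shares for B16 exosomes against B16 cells, and miR-9-5p lies far from it in both panels that involve JB6 exosomes.

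Ratios of 2 miRNAs within 1 library do not depend on any scaling. There were 4.91 reads of miR-9-5p per read of miR-128-3p in B16 exosomes (3.98 to 6.12) and 5.31 in B16 cells (5.25 to 5.38). The ratio of these ratios was 0.925 (0.749 to 1.14). Its interval, like that of each such comparison of balances below, is a normal approximation and not exact. The vesicles and the cells did not differ detectably in this balance, and the interval leaves room for a difference of up to 1.33-fold. Against miR-138-5p there were 51.6 reads of miR-9-5p per read in B16 exosomes (27.8 to 108) and 214 in B16 cells (199 to 231). That balance was 4.16-fold lower in the vesicles (2.21 to 7.80), which rests on the 10 exosome reads of miR-138-5p. These are the smallest number listed, where 2.41 reads would be expected at the cell ratio. Any listing of miR-138-5p would thus have given at least this difference, so the balance adds nothing to its being listed.

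B16 exosomes were next set against JB6 exosomes, the vesicles of a melanoma line against those of a skin line labelled as normal. miR-9-5p was 168-fold higher in B16 exosomes (146 to 194), and miR-128-3p, with a ratio of 0.868 (0.709 to 1.05), had an interval that includes 1. miR-9-5p stayed higher under each of the other scalings, from 11.3-fold with the authors' totals to 111-fold without the 10 most abundant miRNAs. miR-128-3p was lower in B16 exosomes with 3 of the 4 other scalings, 5.95-fold with TMM, 7.51-fold with DESeq2 size factors and 17.1-fold with the authors' totals. miR-138-5p had 10 reads against a listed 0, a share at least 109-fold higher with a counting limit of 39.9-fold, but fell under the minimum of 30 reads. For miR-9-3p the listed 0 in B16 exosomes allows a share of up to 7.09 times that of JB6 exosomes, so its direction was not resolved. With the authors' totals miR-9-3p was at least 2.09-fold lower.

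Of the 3 neural miRNAs with enough reads in this pair 1 was higher and 0 lower, where 31.3% of all 300 were higher and 11.7% lower. In that background 146 of the 300 were not resolved because of a listed 0. That background moves with the scaling, from 94 higher and 35 lower to 61 and 97 with TMM, 57 and 109 with DESeq2 and 40 and 153 with the authors' totals. The shifts in log2 ratio were -2.37, -2.70 and -3.89, and -0.61 without the most abundant miRNAs. The order of ratios is free of it. Only 6 of the 131 miRNAs listed in both exosome libraries had a ratio above that of miR-9-5p, and 101 had one above that of miR-128-3p. This ranking omits miRNAs absent from the JB6 exosome listing, and some of those exceeded miR-9-5p. For miR-211-5p, which had 83 reads in B16 exosomes, the smallest possible ratio was 908 (counting limit 456). For miR-138-5p the bound of 109 did not settle the order. Within the libraries there were 4.91 reads of miR-9-5p per read of miR-128-3p in B16 exosomes, against 0.0254 in JB6 exosomes (0.0225 to 0.0284), a difference of 194-fold (153 to 246).

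JB6 exosomes were last set against B16 cells, the pair of deep libraries. This comparison shares a library with each of the others, and line and source differ together in it. miR-9-5p was 291-fold lower in JB6 exosomes (260 to 327), and of 305 miRNAs listed in both libraries only miR-31-5p had a lower ratio. The 305 leave out miRNAs listed at 0 in JB6 exosomes, some of which were lower still. Among them miR-211-5p, with 21080 reads in B16 cells, was at least 1329-fold lower with a counting limit of 700-fold. miR-9-3p was 11.2-fold lower (9.35 to 13.5), and miR-138-5p, with a listed 0 against 723 reads, was at least 45.6-fold lower with a counting limit of 23.9-fold. miR-128-3p had a ratio of 0.719 (0.704 to 0.735), under the 2-fold size. So 3 of 4 neural miRNAs were lower and 0 higher, where 60.7% of all 501 were lower and 26.1% higher. The count of lower ones is close to that background. The 3 listed in both had a median log2 ratio of -3.48, against -1.47 over all 305.

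The scaling turned the direction of miR-128-3p here. Its ratio was 1.83 (1.79 to 1.87) with TMM, 1.14 (1.12 to 1.17) without the 10 most abundant miRNAs, and 4.30 (4.21 to 4.39) with DESeq2 size factors, where it was called higher. miR-9-5p was lower under each of these scalings and with the authors' totals, with its smallest difference of 48.7-fold at DESeq2 size factors. miR-138-5p was lower under each of them too, by at least 7.63-fold with DESeq2. miR-9-3p fell short of the rule with DESeq2, at a ratio of 0.534 (0.443 to 0.639). All miRNAs split 131 higher and 304 lower by total miRNA reads, 165 and 202 with TMM, 204 and 134 with DESeq2, and 150 and 257 without the most abundant. The log2 shifts were 1.35, 2.58 and 0.67, and -0.19 with the authors' totals.

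**Figure D3:**
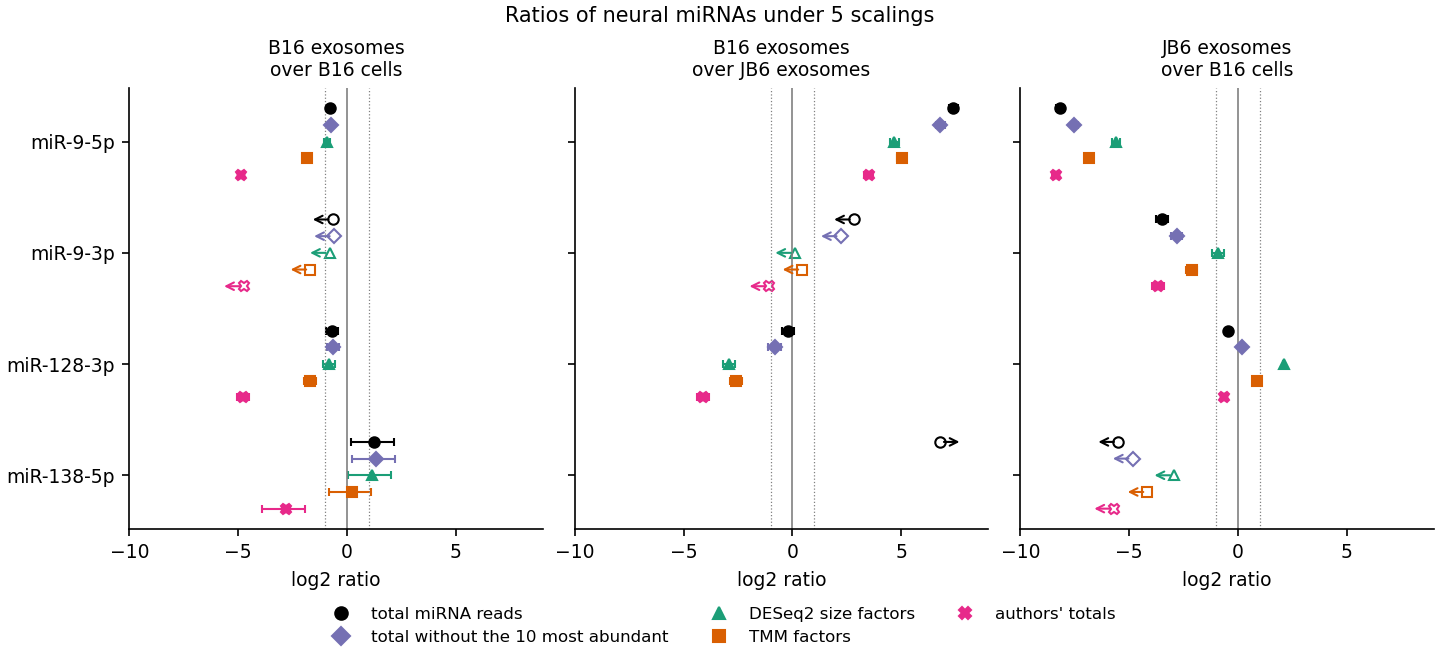
Log2 ratios of the neural miRNAs in the 3 pairs under 5 scalings, with exact 95% counting intervals. Open symbols with arrows are bounds from a listed 0 taken as 9 reads, dotted lines mark 2-fold, and miR-138-5p between the exosome libraries is drawn once because it had under 30 reads. miR-9-5p keeps its side of 0 under every scaling in all 3 pairs, while miR-128-3p crosses 0 for JB6 exosomes over B16 cells.

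The balance between the arms of miR-9 differed between the deep libraries, again free of scaling. There were 2.42 reads of miR-9-5p per read of miR-9-3p in JB6 exosomes (1.96 to 3.0004) and 62.9 in B16 cells (60.4 to 65.5). The 3p arm thus made up 29.3% of miR-9 reads in JB6 exosomes (24.998 to 33.8), against 1.57% in B16 cells (1.505 to 1.63), and the arm ratio was 26.0-fold lower in JB6 exosomes (21.1 to 32.2). At the arm ratio of the cells, the 302 reads of miR-9-5p in JB6 exosomes would go with 4.80 reads of the 3p arm, where 125 were counted. In B16 exosomes the ratio was at least 57.3, taking 9 reads for the listed 0, with a counting limit of 29.97. At the cell ratio 8.21 reads of the 3p arm would go with its 516 reads of the 5p arm, which is under the listing limit, so the vesicles of B16 could not be told from the cells in this.

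**Figure D4:**
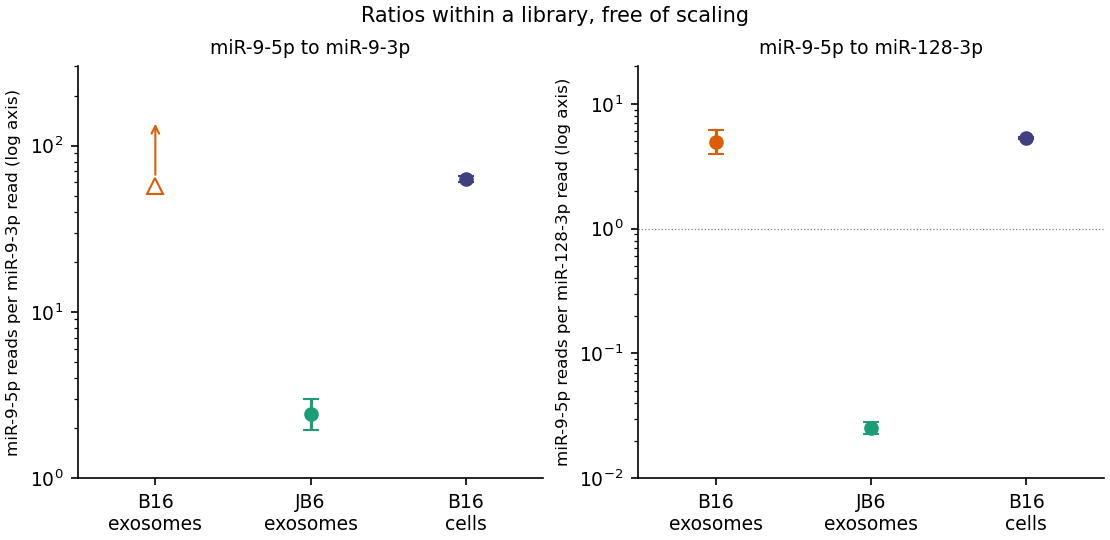
Reads of miR-9-5p per read of miR-9-3p (left) and of miR-128-3p (right) within each library, on log axes with exact 95% counting intervals. The open triangle is a lower bound from a listed 0. B16 exosomes and B16 cells lie together at about 5 reads of miR-9-5p per read of miR-128-3p, and JB6 exosomes lie far below both on either scale.

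The other arms of the miR-128 and miR-138 hairpins differ between the gene copies, so they can show a copy in use where the main arm cannot. They are shown with their seeds in capitals.
miR-128-1-5p: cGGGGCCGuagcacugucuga
miR-128-2-5p: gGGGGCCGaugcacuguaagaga
miR-138-1-3p: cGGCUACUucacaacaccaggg
miR-138-2-3p: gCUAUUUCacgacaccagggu
Aligned without gaps, the miR-128 pair differ at 5 of 21 bases and the miR-138 pair at 2 of 20. All 4 were at 0 in B16 exosomes, and the miR-128 pair also in JB6 exosomes. In B16 cells miR-128-1-5p had 177 reads (22.3 RPM, 19.2 to 25.9) and miR-128-2-5p a listed 0, so reads were seen for the R3hdm1 copy and none above the listing limit for the Arpp21 copy. Beside the 11908 reads of miR-128-3p in JB6 exosomes, the ratio of B16 cells would give 72.2 reads of miR-128-1-5p, where at most 9 were counted. The main arm outnumbered it at least 1323-fold in JB6 exosomes, with a counting limit of 697, and 165-fold in B16 cells (142 to 192).

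The copies of miR-138 were seen in different libraries. miR-138-1-3p was at 0 in B16 exosomes and JB6 exosomes and had 56 reads in B16 cells (7.07 RPM, 5.34 to 9.18). miR-138-2-3p had 13 reads in JB6 exosomes (2.89 RPM, 1.54 to 4.94), where miR-138-5p was at 0, and was at 0 in B16 exosomes and B16 cells. Both sets of reads are few, and the 13 are close to the listing limit. miR-124-5p, the other arm of miR-124, was at 0 in both exosome libraries and had 20 reads in B16 cells (2.52 RPM, 1.54 to 3.897), beside the listed 0 of miR-124-3p.

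The miR-27 family, which shares the shifted heptamer with miR-128-3p and acts in fat and vessel cells, is set beside it for the vesicles and the cells.
miR-27a-3p: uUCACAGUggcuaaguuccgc
miR-27a-3p had 60 reads in B16 exosomes, 10559 in JB6 exosomes and 46452 in B16 cells, and miR-27b-3p had 252, 16823 and 94546. For B16 exosomes over B16 cells their ratios were 0.224 (0.171 to 0.289) and 0.462 (0.407 to 0.523), and both were called lower. miR-27b-3p was no longer called when the interval bound itself had to reach 2-fold, and miR-128-3p, at 0.624 (0.511 to 0.756), fell short of the 2-fold size. Reads of miR-27a-3p per read of miR-128-3p numbered 0.571 in B16 exosomes and 1.59 in B16 cells, a 2.79-fold difference (2.03 to 3.83) that needs no scaling. For miR-27b-3p they numbered 2.40 and 3.24, a 1.35-fold difference (1.07 to 1.70).

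The miRNAs nearest in pattern over the 3 libraries were found by distance. Likeness was the distance between log2 shares, each centred on its own mean over the 3 libraries, among the 131 other miRNAs listed in all of them. The nearest to miR-9-5p were miR-196b-5p at 0.05, miR-31-5p at 0.36 and miR-15b-5p at 0.38 log2 units. miR-196b-5p, which is encoded in a Hox cluster, had 44 reads in B16 exosomes, 27 in JB6 exosomes and 13473 in B16 cells. miR-15b-5p had 12, 10 and 3848 in the same order, at or near the listing limit in both exosome libraries. The distances carry no interval, so their order is not precise at such counts. The nearest to miR-128-3p were miR-99a-5p at 0.40, let-7b-5p at 0.48 and miR-345-3p at 0.52. miR-99a-5p had 860, 87643 and 163893 reads in the same order of libraries. Nearness by this distance allows another order of the libraries, since let-7b-5p took its highest share in JB6 exosomes (1.04%, 1.30% and 1.17%) and miR-345-3p its lowest there (0.0701%, 0.0485% and 0.0901%).

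A wider list of 24 neuronal miRNA entries, which includes the 5 and their other arms, placed them among their kind. Of these 8 were listed in B16 exosomes, 9 in JB6 exosomes and 16 in B16 cells, and 6 were at 0 throughout, among them miR-137-3p and miR-153-3p, which are found in neurons. Summed, the list took 2.03% of miRNA reads in B16 exosomes, 0.492% in JB6 exosomes and 2.99% in B16 cells. miR-9-5p was 55.5% of these reads in B16 exosomes, 1.36% in JB6 exosomes and 65.5% in B16 cells. A list of 4 oligodendrocyte miRNAs (arms of miR-219a and miR-338) had 0 entries in either exosome library and 2 in B16 cells, with 72.7 RPM in all.

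miR-129-5p, a miRNA of neurons, had 232 reads or 5079 RPM in B16 exosomes, 1090 reads or 242 RPM in JB6 exosomes, and 36043 reads or 4548 RPM in B16 cells. Its ratio was 1.12 for B16 exosomes over B16 cells (0.977 to 1.27), which turned to 0.551 with TMM and 0.0662 with the authors' totals. It was 21.0-fold higher in B16 than in JB6 exosomes (18.1 to 24.2), or 1.41-fold with the authors' totals. miR-132-3p, which neuronal activity induces, had 28, 26 and 3501 reads in the same order, and was 106-fold higher in B16 than in JB6 exosomes (59.9 to 188), or 20.5-fold with TMM, 16.3-fold with DESeq2 size factors and 7.15-fold with the authors' totals. miR-218-5p, a motor neuron miRNA, went the other way with 14, 8623 and 4239 reads. It was 6.26-fold lower in B16 than in JB6 exosomes (3.73 to 11.5), or 32.3-fold with TMM, 40.8-fold with DESeq2 and 92.8-fold with the authors' totals. It was 3.59-fold higher in JB6 exosomes than in B16 cells (3.46 to 3.72), or 9.13-fold with TMM and 21.4-fold with DESeq2.

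By the rule of size and interval, the wider list had 1 of 14 entries higher and 0 lower in B16 exosomes against B16 cells. The higher entry was miR-138-5p, called at the smallest number listed, and 7 were neither and 6 not resolved. Of all 422 miRNAs 8.53% were higher and 7.82% lower, and 267 were not resolved. With TMM 5 entries were lower, where 22.04% of all were, and with the authors' totals 12, where 60.9% were. In B16 against JB6 exosomes 3 of 6 were higher and 1 lower, where 31.3% and 11.7% of all 300 were. With the authors' totals 2 were higher and 3 lower, where 13.3% and 51% of all were. In JB6 exosomes against B16 cells 2 of 15 were higher and 12 lower, where 26.1% and 60.7% of all 501 were. With DESeq2 factors 3 were higher and 9 lower, where 40.7% and 26.7% of all were. The pair higher by total miRNA reads were miR-218-5p and miR-134-5p, a dendritic miRNA known from rat neurons, with 28 reads in JB6 exosomes and 13 in B16 cells. The median log2 ratios over entries listed in both libraries were -0.03 for 8 entries, 4.39 for 5 and -3.48 for 7, against 0.03, 2.62 and -1.47 over all miRNAs listed in both.

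**Figure D5:**
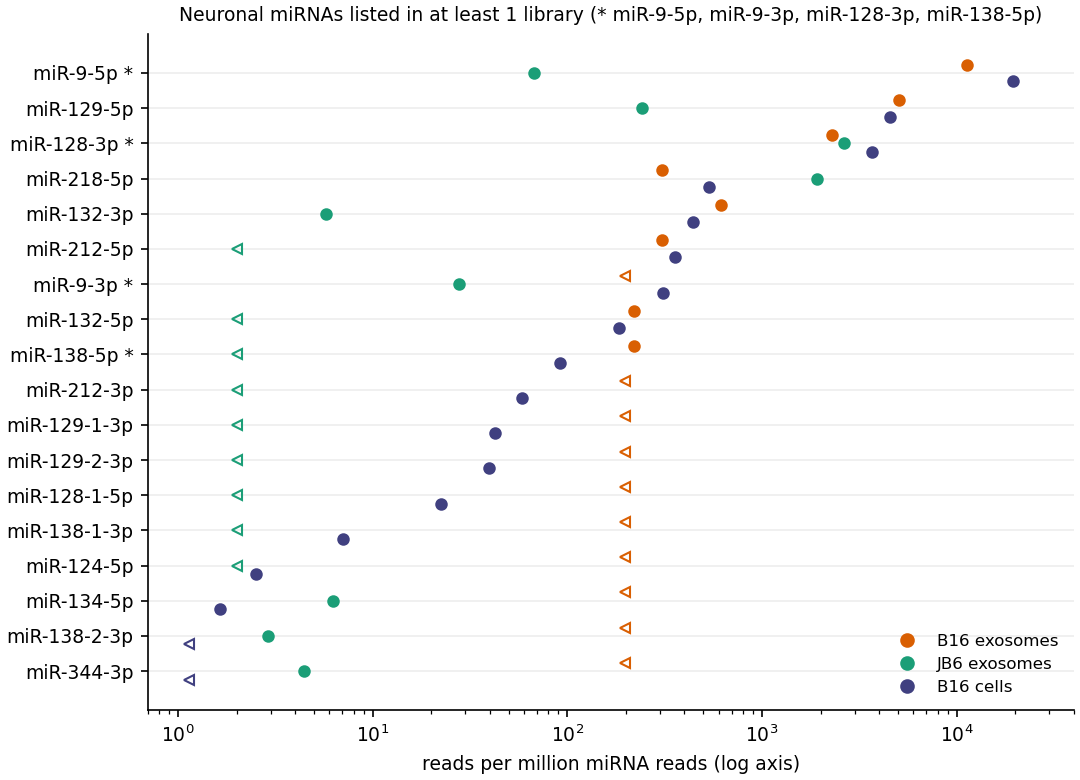
Levels in RPM of miRNA reads (log axis) of the 18 neuronal entries listed in at least 1 library, ordered by B16 cells, for B16 exosomes (orange), JB6 exosomes (green) and B16 cells (blue). Open triangles mark a listed 0 at the level of 9 reads. miR-9-5p leads in both B16 libraries, and of the 3 most abundant entries of B16 cells only miR-128-3p is at a like level in JB6 exosomes.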

How the data were processed

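Small RNA from 3 sources was sequenced, with 1 library per group. Per the labels' protocols, exosomes were collected by ultracentrifugation and RNA was taken with Trizol. Tools named in the submitters' processing notes are BWA and bcl2fastq, with build mm10. Versions, trimming, the miRNA annotation and the handling of multiple matches were not given in the sources used here. The authors deposited a count of reads per mature miRNA, not normalized, and a normalized value in RPM. Within each file the deposited RPM was the count over a constant total, larger than the summed miRNA counts.

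Shares of total miRNA reads were compared as ratios with exact conditional binomial 95% intervals (SciPy 1.17.1). Within-library ratios were compared between libraries as sample odds ratios, with 95% intervals by normal approximation on the log scale. A miRNA with 30 or more reads over a pair was called at 2-fold or more with an interval excluding 1, and a listed 0 was set to 9 reads. No test across libraries was possible. Alternatives used edgeR 4.0.16 (TMM), DESeq2 1.42.0, the authors' totals, totals without the 10 most abundant miRNAs, other minimums and a stricter rule. The miRNAs, lists and rules were chosen with earlier results of these data known. Named miRNAs were the 5, their other arms, abundant list entries, shifted-seed relatives and the 3 nearest in pattern. Sequences for 4 of the 5 matched RefSeq. Without molecular identifiers, PCR copies count as reads, so intervals and limits cover counting error only.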

Additional observations from a re-analysis of the deposited data

How the results depend on the processing

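Of 78 recalculated member ratios, 60 kept their side of 1 and their called or uncalled status. Of the others 11 gained a call, 3 lost one and 4 turned. The size of a ratio was not judged. miR-9-5p in B16 over JB6 exosomes is among the 60 at 11.3-fold with the authors' totals, against 168-fold by total miRNA reads. The other minimums and the stricter bound leave a ratio as it is, so only its call could change there. A ratio with a listed 0 was judged on its call alone. The 60 therefore do not measure how well directions hold. For B16 exosomes over B16 cells, where 1 was higher and 0 lower, TMM gave 0 and 3, the authors' totals 0 and 4, and an interval bound of at least 2-fold 0 higher. miR-138-5p turned to 0.142 with the authors' totals, and miR-129-5p to 0.0662, or 0.551 with TMM. For B16 over JB6 exosomes (1 and 0), 1 was lower with TMM or DESeq2 and 2 with the authors' totals, and 2 were higher with no minimum, which adds miR-138-5p. For JB6 exosomes over B16 cells (0 and 3), 1 was higher with DESeq2, where miR-128-3p was 4.30, against 1.83 with TMM and 1.14 without the 10 most abundant. The summed share was 0.0744%, 0.219% and 2.15% of the authors' totals in B16 exosomes, JB6 exosomes and B16 cells, and 3.54%, 1.07% and 5.82% without the 10 most abundant. The moves under other scalings follow from the changed totals, and the others from the stricter bound or the missing minimum. The 45677 reads of the B16 exosome library limit its rarer entries. No paired analysis was possible because each group has 1 library.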
